A study of Mus musculus with 4 samples.

Results

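The genes described here are 9 markers of alternative macrophage activation, Arg1, Retnla, Chil3 (formerly Chi3l3), Il4ra, Pdcd1lg2, Tgm2, Cd163, Fn1 and Ccl17, out of 24625 genes in the deposited count tables. They were chosen by symbol, and each matched 1 row. They were measured in peritoneal macrophages of C57BL/6 mice on a high-fat diet (HFD, with 60% of its energy as fat) or on a control diet, described as standard chow in the study's design, for 12 weeks. All mice in both groups had also received 3% thioglycollate medium, an irritant, into the peritoneal cavity 4 days before collection, so the cells are elicited macrophages in each diet. There were 2 HFD and 2 control libraries of rRNA-depleted total RNA, and nothing in the labels tells separate mice from pools, so p-values measure only the spread between these samples, which may be technical. The sources used here give neither age nor sex.

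Alternative activation is the program that interleukin-4 and interleukin-13 switch on in macrophages. The cytokines bind receptors that contain the Il4ra chain, Janus kinases phosphorylate the transcription factor STAT6, and STAT6 drives genes such as Arg1, Retnla and Chil3 in the mouse. The program is studied in adipose tissue, where obesity is associated with fewer cells of this kind, and in the peritoneal cavity during worm infection. Fn1, Tgm2 and Cd163 are used as markers of the same state but also answer to other signals, Cd163 mainly to glucocorticoids and interleukin-10.

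The region just upstream of the transcription start was available for 6 of the 9 genes from RefSeq on GRCm38.p6. It was searched over 250 bases for the STAT6 half-sites TTC and GAA with any 4 bases between them, and for a shorter form with 3 bases between them. Each form reads the same on both strands, and the forms can overlap. The longer form was in 3 of the 6 regions, those of Retnla, Pdcd1lg2 and Ccl17, and 6.76% of the 27025 genes in the table had it in at least 1 such region. The shorter form was in 2 of the 6, those of Ccl17 and Chil3, against 8.13% of all genes. A match is a run of letters and not a tested binding site. The 3 regions with the longer form are shown because these genes share that feature while their transcripts ranged from well measured to near absent; capitals mark matches to either form, and Ccl17 has 1 of each.
Retnla upstream region, 5′ to 3′: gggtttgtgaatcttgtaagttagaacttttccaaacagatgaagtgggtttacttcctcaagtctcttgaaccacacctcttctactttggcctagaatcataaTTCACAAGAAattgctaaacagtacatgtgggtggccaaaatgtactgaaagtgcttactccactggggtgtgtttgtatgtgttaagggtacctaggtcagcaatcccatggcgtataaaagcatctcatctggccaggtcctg
Pdcd1lg2 upstream region, 5′ to 3′: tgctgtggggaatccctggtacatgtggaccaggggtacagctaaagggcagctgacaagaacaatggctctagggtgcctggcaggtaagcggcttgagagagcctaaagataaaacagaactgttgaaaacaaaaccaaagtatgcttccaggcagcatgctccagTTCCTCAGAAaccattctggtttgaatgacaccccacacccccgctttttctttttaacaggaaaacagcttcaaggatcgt
Ccl17 upstream region, 5′ to 3′: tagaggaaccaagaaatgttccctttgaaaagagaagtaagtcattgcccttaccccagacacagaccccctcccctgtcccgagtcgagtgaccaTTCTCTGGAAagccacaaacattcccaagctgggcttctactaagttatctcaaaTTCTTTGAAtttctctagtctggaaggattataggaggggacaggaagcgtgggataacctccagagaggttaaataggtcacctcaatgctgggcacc
The Retnla region is chr16:48842359-48842608 on the plus strand and its match starts 145 bases before the start site. The Pdcd1lg2 region is chr19:29410669-29410918 on the plus strand, with the match starting 82 bases before the start site. The Ccl17 region is chr8:94810203-94810452 on the plus strand, and its longer match starts 154 bases before the start site.

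Gene totals were 39347347 to 45658551 counts per library. Levels below are in CPM, counts scaled to the library's TMM-adjusted total, and in RPKM, which is CPM per kilobase of exon and allows comparison between genes. The labelled cell type had its defining markers: Lyz2 (lysozyme) was at 16400 and 20990 CPM in HFD libraries, against 22930 and 22090 CPM in control libraries, Cd68 at 1239 and 1100 CPM against 1128 and 999.3 CPM, and Ctsd, a lysosomal protease, at 8987 and 7759 CPM against 11500 and 9944 CPM. Mesothelial and fibroblast markers summed to more in both HFD libraries, at 187 and 93.0 CPM, against 23.3 and 30.5 CPM in control libraries, and markers of T cells, NK cells and innate lymphoid cells were highest in HFD replicate 2. In bulk RNA, fewer cells of a type and less RNA per cell cannot be told apart.

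The 9 genes spanned a wide range of levels. Over the 4 libraries the mean RPKM was 66.2 for Chil3, 44.8 for Retnla, 42.6 for Arg1, 37.0 for Fn1, 24.1 for Tgm2, 4.47 for Il4ra, 1.17 for Pdcd1lg2, 0.722 for Cd163 and 0.101 for Ccl17. Each neighbouring pair from Chil3 to Tgm2 in this order had overlapping ranges, as did those of Pdcd1lg2 and Cd163, while Tgm2 and Il4ra, Il4ra and Pdcd1lg2, and Cd163 and Ccl17 did not overlap. The order of the upper 4 changed with the library: Retnla was the highest of the 9 in HFD replicate 2, and Chil3 was the highest in the other 3 libraries. By mean RPKM, Chil3 lay above 91.6% of the 12747 genes kept for testing, Arg1 above 87.5%, Il4ra above 47.3% and Cd163 above 19.7%.

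Of the 9 genes, 8 passed the filter on low counts and 1, Ccl17, did not. In edgeR's quasi-likelihood test with Benjamini-Hochberg adjustment over all kept genes, Fn1 fell in HFD libraries and the other 7 did not pass an adjusted p of 0.05. Over all kept genes 0.612% passed, 0.322% higher and 0.29% lower. At an unadjusted p under 0.05 there were 3 of the 8 (Fn1, Tgm2 and Chil3), against 17% of all kept genes. The libraries of the diets did not overlap for 4 of the 8, with 1 gene higher and 3 lower in HFD; of all kept genes 51% did not overlap, 26.1% higher and 24.9% lower. The log2 fold changes, HFD over control, were below 0 for 6 of the 8, against 50.8% of all kept genes, with a median of -0.29, beside -0.0054 for all kept genes.

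**Figure D1:**
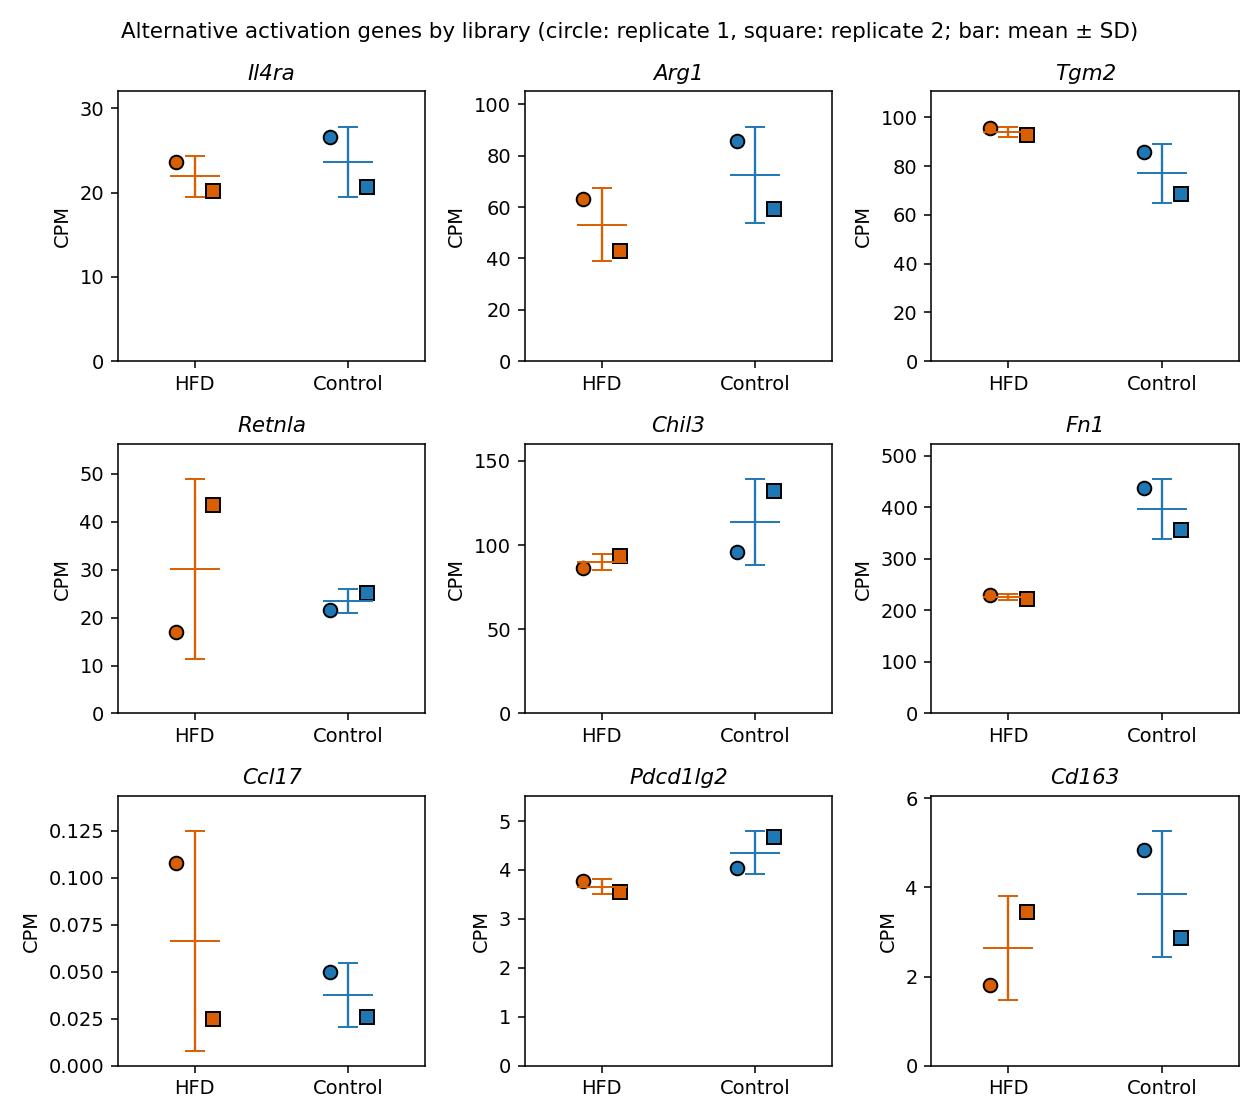
Level of each gene in CPM (vertical axes, each from 0) in HFD and control libraries; circles are replicate 1, squares replicate 2, and the bars give mean ± SD of 2 libraries. Fn1 lies at 230.8 and 221.7 CPM in HFD libraries, below both control libraries, while Retnla stands apart in HFD replicate 2 at 43.5 CPM.

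Il4ra is the receptor chain shared by the interleukin-4 and interleukin-13 receptors. It is encoded on chromosome 7 at 132695796 to 132722988 (mm9, plus strand) in 11 exons. Its level was 23.7 and 20.2 CPM in HFD libraries, against 26.6 and 20.7 CPM in control libraries. The diets overlapped, with control replicate 1 the highest and HFD replicate 2 the lowest. On the log2 scale HFD minus control was -0.11 ± 0.15 (SE), with a 95% interval from -0.45 to 0.23 (adjusted p = 0.737, edgeR quasi-likelihood test). Leaving out HFD replicate 2 or control replicate 1 turned its sign, to 0.0015 and 0.077.

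Arg1, the arginase that turns arginine into ornithine and urea, lies on chromosome 10 at 24635013 to 24647276 (mm9, minus strand) in 8 exons. It stood at 63.3 and 43.1 CPM in HFD libraries, against 85.9 and 59.4 CPM in control libraries. In each diet replicate 1 was the higher library, and HFD replicate 1 lay above control replicate 2, so the diets overlapped. Its log2 fold change was -0.45 ± 0.27 with a 95% interval from -1.16 to 0.26 (adjusted p = 0.463, edgeR quasi-likelihood test). The gap between replicates was wide for both diets, 0.55 on the log2 scale in HFD and 0.53 in control libraries, wider than in 98.7% and 98.5% of kept genes of similar level (within 0.5 of its mean log2 CPM). Without HFD replicate 1 the log2 fold change was -0.75, without HFD replicate 2 it was -0.20, and without control replicate 1 it was -0.17. A diet with 1 library left cannot show its own spread, so only the sizes are given here.

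An assembled gene outside RefSeq starts 91 bases from the Arg1 start site on the other strand. It was named by its position and not by the rule for naming genes. Its level was 2.95 and 2.40 CPM in HFD libraries, against 1.79 and 2.29 CPM in control libraries, and its log2 fold change of 0.39 ± 0.25 did not pass (adjusted p = 0.452, edgeR quasi-likelihood test). Its exons and those of Arg1 do not overlap.

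Tgm2, a transglutaminase that crosslinks proteins, lies on chromosome 2 at 157942141 to 157972128 (mm9, minus strand) in 13 exons. It was at 95.6 and 92.8 CPM in HFD libraries, against 85.7 and 68.4 CPM in control libraries. Both HFD libraries lay above both control libraries, and control replicate 2 was the lowest. The estimated log2 fold change was 0.29 ± 0.12 with a 95% interval from 0.026 to 0.55; it had an unadjusted p of 0.0347 and did not pass over all genes (adjusted p = 0.262, edgeR quasi-likelihood test). Fibroblasts and mesothelial cells also make this enzyme, and the part of their higher marker levels in HFD libraries in this value was not tested.

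Retnla, which encodes the secreted protein RELMα, a product of interleukin-4-activated macrophages in the mouse, lies on chromosome 16 at 48842665 to 48844574 (mm9, plus strand) in 4 exons. Its level was 16.9 and 43.5 CPM in HFD libraries, against 21.7 and 25.2 CPM in control libraries. The HFD libraries held both the lowest and the highest value, and HFD replicate 2 had 2.57 times the level of HFD replicate 1. This gap, 1.36 on the log2 scale, was wider than in 99.9% of kept genes of similar level; between control libraries it was 0.22. The log2 fold change was 0.36 ± 0.55, with a 95% interval from -1.36 to 2.08 (adjusted p = 0.776, edgeR quasi-likelihood test). Its direction rested on 1 library: without HFD replicate 2 it was -0.47, and without HFD replicate 1 it was 0.89. With 1 HFD library left, the gap between the HFD libraries drops out of the error, so only the sizes are given here. Of the family members beside it on the chromosome, named by position, Retnlb was listed at 0 in all 4 libraries, and Retnlg, also a neutrophil marker, had 2 and 4 counts in HFD libraries, against 21 and 74 counts in control libraries.

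Lymphoid cell markers were also, as a sum, highest in HFD replicate 2. The highest value in that library held for the sums and not for every gene. The summed T, NK and innate lymphoid markers, of which 11 of 12 symbols were in the files, were at 11.7 and 34.1 CPM in HFD libraries, against 18.1 and 16.9 CPM in control libraries. Cd3g, a T cell receptor component, was at 0.689 and 6.96 CPM in HFD libraries, against 0.720 and 1.03 CPM in control libraries, and Il1rl1, the interleukin-33 receptor, at 8.36 and 14.8 CPM against 13.5 and 11.5 CPM. Klrb1c, an NK cell receptor, was lower in both HFD libraries, with 36 and 40 counts, against 60 and 57 counts in control libraries. The 12 B cell markers summed to 223.4 and 316.2 CPM in HFD libraries, against 221.2 and 216.4 CPM in control libraries, with Ms4a1 (CD20) at 28.6 and 79.0 CPM against 26.6 and 29.3 CPM, while Cd22, a B cell lectin, was lowest in HFD replicate 2, at 48.2 and 40.9 CPM against 59.8 and 53.1 CPM. The 12 dendritic cell markers summed to 34.2 and 57.9 CPM in HFD libraries, against 43.6 and 44.9 CPM in control libraries. Ccl22, Ccr7 and Dpp4 made up most of that sum. Of the 11 kept genes, 6 were lower in both HFD libraries and 1 was higher in both, with a median log2 fold change of -1.20. The shares over all kept genes were 24.9% lower and 26.1% higher. The part of these cells in the Retnla level was not tested. No gene of these 3 lists was at 0 in every library.

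Chil3, a chitinase-like protein that macrophages secrete, also called Ym1, lies on chromosome 3 at 105950472 to 105970482 (mm9, minus strand) in 11 exons. It was at 86.4 and 93.6 CPM in HFD libraries, against 95.8 and 131.9 CPM in control libraries. The diets did not overlap, although HFD replicate 2 and control replicate 1 were close and control replicate 2 stood above the other 3. Its log2 fold change was -0.34 ± 0.15 (unadjusted p = 0.0499 and adjusted p = 0.293, edgeR quasi-likelihood test), and with 1 library left out it ran from -0.56 without control replicate 1 to -0.090 without control replicate 2. The near-identical copy Chil4 had 0 and 1 counts in HFD libraries, against 0 and 0 counts in control libraries; reads that fit both copies are uncertain, since alignments at more than 1 place, 37.5% to 48.5% of all counted lines, were assigned to no gene. Eosinophil markers, as a sum and not for every gene, shared with Chil3 control replicate 2 as the highest library. They summed to 5.84 and 8.96 CPM in HFD libraries, against 12.6 and 22.3 CPM in control libraries. Of these 10 markers Ear6 and Prg3 were at 0 in every library; Ccr3, an eosinophil chemokine receptor, was at 1.70 and 1.58 CPM in HFD libraries, against 4.32 and 11.1 CPM in control libraries, Siglecf at 1.62 and 1.33 CPM against 2.96 and 4.43 CPM, and Il5ra at 1.79 and 4.88 CPM against 2.98 and 3.99 CPM. Ear2, named after its values were seen, was higher in both HFD libraries, with 18 and 24 counts, against 7 and 13 counts in control libraries. Prg2, Epx and Ear1 had at most 3 counts in a library. The part of eosinophils in the Chil3 level was not tested.

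Fn1, which encodes the matrix glycoprotein fibronectin, was the most counted of the 9 genes. Of the 8 tested, it was the gene that passed an adjusted p of 0.05 in edgeR's quasi-likelihood test. It lies on chromosome 1 at 71632047 to 71699808 (mm9, minus strand), with 46 exon blocks over 7 transcripts. There were 10715 and 8859 counts in HFD libraries, against 17647 and 13831 counts in control libraries, or 230.8 and 221.7 CPM against 438.4 and 356.3 CPM. Both HFD libraries lay below both control libraries. The gap between HFD libraries was 0.058 on the log2 scale, wider than in 28.5% of kept genes of similar level. Between control libraries it was 0.30, wider than in 90.9%. The mean was 226.3 ± 6.42 CPM in HFD libraries and 397.3 ± 58.1 CPM in control libraries (SD, n = 2 each). HFD libraries held 0.569 times the control level, a log2 fold change of -0.81 ± 0.12 with a 95% interval from -1.08 to -0.55 (adjusted p = 0.029, edgeR quasi-likelihood test). The call ended by limma-voom (-0.80, adjusted p = 0.0511), while DESeq2 kept it (adjusted p = 7.74e-08). It also ended without control replicate 1 (log2 fold change -0.66) or control replicate 2 (-0.95), as most calls over all kept genes did. Without HFD replicate 1 the log2 fold change was -0.84, and without HFD replicate 2 it was -0.78. A diet with 1 library left cannot show its own spread, so no p-value from such a fit is given here.

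Mesothelial cells and fibroblasts also make fibronectin, and their markers, as a sum, were higher in both HFD libraries. All 17 markers were in the files and none was at 0 in every library. Of 13 kept markers 2 were called higher, against 0.322% of all kept genes. They were Postn at 3.32 and 2.58 CPM in HFD libraries, against 0.522 and 0.335 CPM in control libraries (adjusted p = 0.0161), and Lum at 1.79 and 1.18 CPM against 0.199 and 0.232 CPM (adjusted p = 0.031), both by edgeR's quasi-likelihood test. Lum passed the filter on its HFD counts, with 8 and 9 counts in control libraries, so its direction was partly set by the filter. Neither call held without control replicate 1 or 2, and that of Lum also ended by limma-voom (adjusted p = 0.0669). Both are matrix genes. The 3 most abundant markers did not pass: Dcn was at 81.9 and 47.8 CPM in HFD libraries, against 10.9 and 18.3 CPM in control libraries (adjusted p = 0.178), Col3a1 at 49.7 and 18.8 CPM against 3.88 and 4.22 CPM (adjusted p = 0.197), and Pdgfra at 18.5 and 8.61 CPM against 1.86 and 2.01 CPM (adjusted p = 0.068, edgeR quasi-likelihood test). Markers of large peritoneal macrophages, the resident cells, summed to 825 and 844.3 CPM in HFD libraries, against 974.1 and 797.3 CPM in control libraries. Cd93 made up most of that sum. Of the 11 kept genes 1, Alox15, was called lower, against 0.29% of all kept genes. Log2 fold changes were below 0 for 9, against 50.8% of all kept genes. Neutrophil markers summed to 80.9 and 67.3 CPM in HFD libraries, against 112.3 and 116.0 CPM in control libraries. Mmp9 (6.01 and 8.26 CPM in HFD, against 21.4 and 18.2 CPM in control libraries; adjusted p = 0.0161) and Csf3r (27.9 and 23.0 CPM against 42.4 and 39.6 CPM; adjusted p = 0.0476, edgeR quasi-likelihood test) were the neutrophil markers called lower, 2 of 9 kept, against 0.29% of all kept genes. Both calls ended without control replicate 1 or 2, and that of Csf3r also by limma-voom (adjusted p = 0.0776) and with a filter of 1 CPM (0.0519). S100a8 was at 19.0 and 17.4 CPM in HFD libraries, against 17.0 and 24.5 CPM in control libraries, and Mmp8 at 22.2 and 11.8 CPM against 21.3 and 22.1 CPM, so for both the diets overlapped; Elane and Itgb2l were at 0 in every library. The summed neutrophil markers were lower in both HFD libraries, as Fn1 was. The part of any of these cells in the Fn1 difference was not tested.

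The noncoding gene that starts 101 bases from the Fn1 start site on the other strand, listed as Apol7d and named by position, was at 0.366 and 0.175 CPM in HFD libraries, against 0.298 and 0.309 CPM in control libraries. Its log2 fold change was -0.14 ± 0.52 (adjusted p = 0.904, edgeR quasi-likelihood test). Its 95% interval, from -1.31 to 1.03, holds the change of Fn1, so a like change was not detectable at this depth. Atic, 6070 bases beyond the other end of Fn1 and also named by position, was at 56.1 and 56.7 CPM in HFD libraries, against 57.4 and 53.6 CPM in control libraries.

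**Figure D2:**
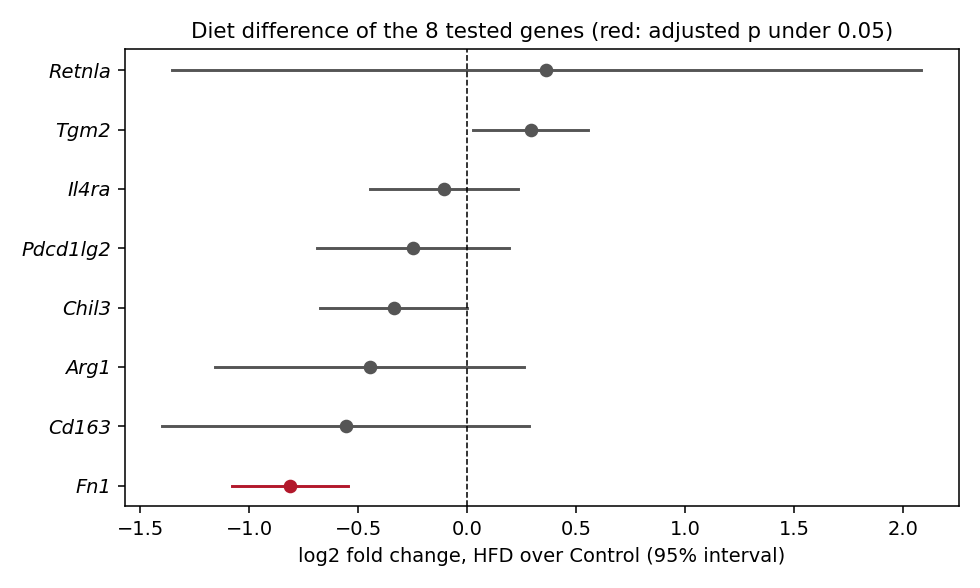
Log2 fold change, HFD over control (horizontal axis), of the 8 tested genes, with points for the estimate and lines for its 95% interval from edgeR's quasi-likelihood fit. Fn1, in red, is the gene past an adjusted p of 0.05 at -0.81, and Retnla has the widest interval, from -1.36 to 2.08.

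Ccl17, a chemokine that attracts CCR4-bearing T cells and that interleukin-4 induces in macrophages and dendritic cells, lies on chromosome 8 at 97334353 to 97335936 (mm9, plus strand) in 3 exons. It had 5 and 1 counts in HFD libraries, against 2 and 1 counts in control libraries, and was not tested. With at most 5 counts in a library, a difference was not detectable at this depth. Ccl22, its neighbour in function and likewise a ligand of CCR4, was well counted, at 17.2 and 27.3 CPM in HFD libraries, against 17.9 and 17.3 CPM in control libraries. Cd209a, a lectin of dendritic cells, fell to 0.625 and 0.926 CPM in HFD libraries, against 4.27 and 3.55 CPM in control libraries (adjusted p = 0.0161, edgeR quasi-likelihood test), and missed the threshold without control replicate 1 or 2. The other dendritic cell genes with high levels, Ccr7 (5.49 and 10.6 CPM in HFD, against 5.34 and 5.38 CPM in control libraries) and Dpp4 (4.44 and 10.6 CPM against 5.22 and 7.03 CPM), did not pass.

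Pdcd1lg2 encodes PD-L2, a ligand of the inhibitory T cell receptor PD-1, and lies on chromosome 19 at 29485409 to 29547417 (mm9, plus strand) in 6 exons. It was at 3.77 and 3.55 CPM in HFD libraries, against 4.05 and 4.66 CPM in control libraries. The diets did not overlap and all 4 libraries were close. Its log2 fold change was -0.25 ± 0.20, with a 95% interval from -0.69 to 0.19 (adjusted p = 0.536, edgeR quasi-likelihood test). Cd274, which encodes the other PD-1 ligand PD-L1 and ends 22825 bases before the start of Pdcd1lg2, was more abundant, at 85.6 and 82.1 CPM in HFD libraries, against 110.0 and 112.4 CPM in control libraries, with a log2 fold change of -0.41 ± 0.09 that missed the threshold (adjusted p = 0.0816, edgeR quasi-likelihood test) and passed by DESeq2 (adjusted p = 0.0198).

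Cd163, the scavenger receptor for haemoglobin bound to haptoglobin, lies on chromosome 6 at 124254669 to 124280545 (mm9, plus strand), with 17 exon blocks over 2 transcripts. It had 84 and 138 counts in HFD libraries, against 195 and 111 counts in control libraries, or 1.81 and 3.45 CPM against 4.84 and 2.86 CPM. HFD replicate 2 lay above control replicate 2, so the diets overlapped, and each diet had a low and a high library. The log2 fold change was -0.56 ± 0.36, with a 95% interval from -1.40 to 0.28 (adjusted p = 0.467, edgeR quasi-likelihood test). It moved with the library left out: it was -1.09 without HFD replicate 2, -0.16 without HFD replicate 1 and -0.13 without control replicate 1. Among large peritoneal macrophage genes with high levels, Fcna was at 53.3 and 122.5 CPM in HFD libraries, against 83.0 and 56.6 CPM in control libraries. Vsig4 was at 51.3 and 57.0 CPM against 90.4 and 26.5 CPM, and Cd93 at 683.8 and 608.3 CPM against 673.2 and 665.9 CPM. Serpinb2, Timd4, Prg4, Selp and Icam2, named after their values were seen, were lowest in HFD replicate 1 and highest in control replicate 1. Cd163 had that order too, and the other kept genes of the list did not. Of the 11 kept genes 9 had log2 fold changes below 0, against 50.8% of all kept genes. The part of such cells in the Cd163 level was not tested.

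**Figure D3:**
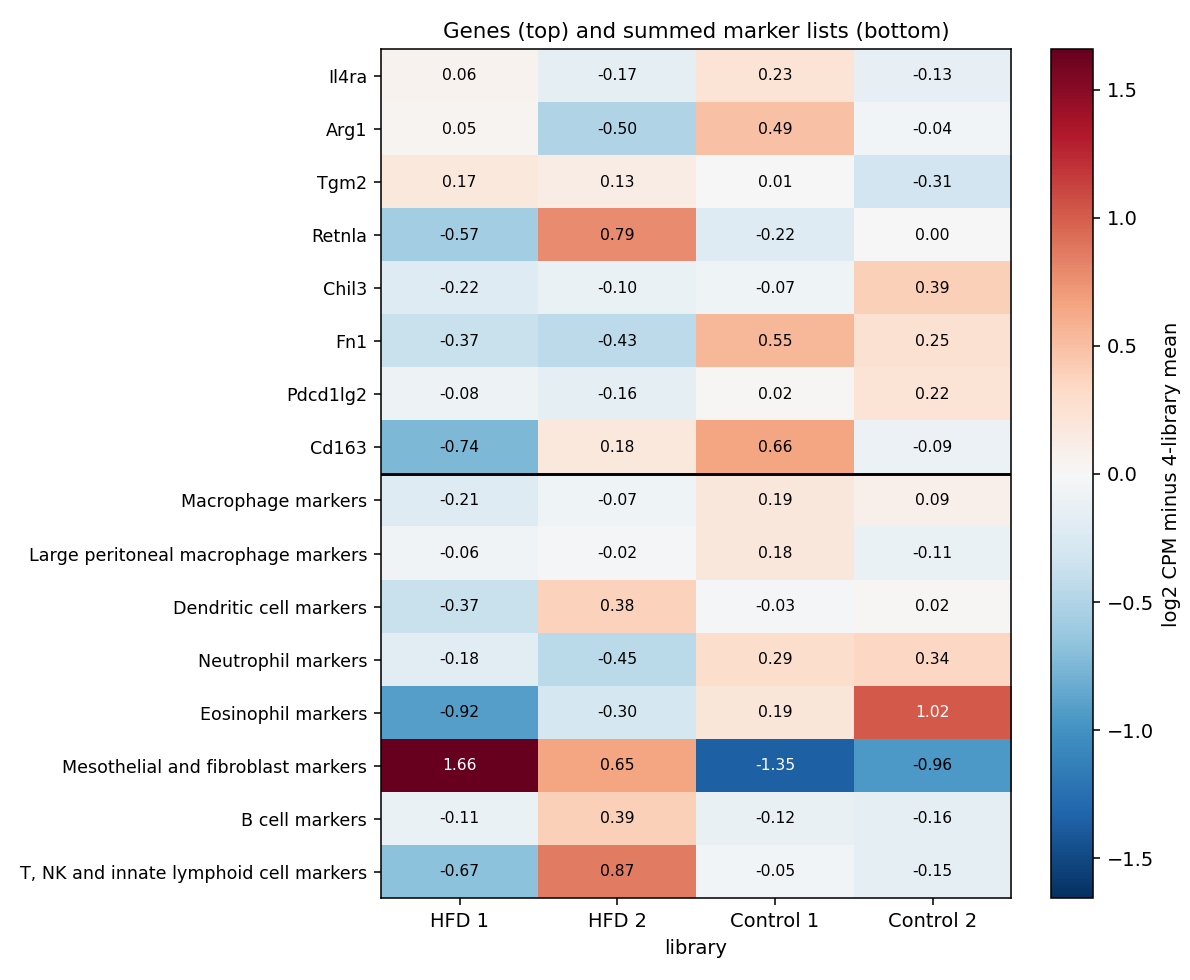
Log2 CPM minus the mean of the 4 libraries (colour and printed value) for the 8 tested genes, above the line, and for the summed CPM of each cell marker list, below it; columns are libraries. Fn1 is below its mean in both HFD libraries, Retnla reaches 0.79 in HFD replicate 2, where the T, NK and innate lymphoid markers reach 0.87, and mesothelial and fibroblast markers are above their mean in both HFD libraries.

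The 8 genes did not share a profile over the libraries. Between the centred log2 CPM values of 2 genes over 4 libraries, the smallest Euclidean distance was 0.24, between Chil3 and Pdcd1lg2, and the largest was 1.60, between Arg1 and Retnla. The 3 other RefSeq genes of at least 5 CPM closest to Fn1 were Plxnd1 (a semaphorin receptor), Srebf1 (a regulator of lipid synthesis) and Coro7, at distances of 0.058, 0.088 and 0.11. Plxnd1 fell as well, by 0.78 on the log2 scale (edgeR quasi-likelihood test, adjusted p = 0.0434). Like Fn1, it missed the threshold once control replicate 1 or 2 was left out and by limma-voom (adjusted p = 0.0735). It also missed the threshold with a filter of 1 CPM (0.0519). The exons of Srebf1 overlap a gene on the opposite strand, so its value is uncertain. Those closest to Retnla were Rasgrp1, Snora3 and F13a1, at 0.11 to 0.16, and those closest to Arg1 were Vwf, Wdtc1 and Gga1, at 0.046 to 0.062. For Chil3 they were Glipr1, Arhgap15 and Casc4, for Tgm2 Colec12 and Nkain1, for Il4ra Brat1, Supt5 and Kif1c, and for Pdcd1lg2 Arl5a, Tmem140 and Rad52, all within 0.086; Glipr1, Arhgap15 and Tmem140 overlap genes on the opposite strand and Kif1c a microRNA gene, so these are uncertain too. The closest to Cd163 were Ptprm, Pacs1 and Map6, farther away at 0.25 to 0.43. These distances rest on 4 libraries and are a description.

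The cytokines and the signalling chain above these genes were then examined. Of the 20 genes in the list of interleukin-4 and interleukin-13 signalling, 16 were kept and 0 passed edgeR's test. DESeq2 called 1 of them lower, 6 had an unadjusted p under 0.05, and 14 had log2 fold changes below 0, with a median of -0.24. Of all 12747 kept genes, 17% had an unadjusted p under 0.05, 50.8% had log2 fold changes below 0, and DESeq2 called 166 higher and 200 lower. The 3 with the smallest p were Pik3cd, a catalytic subunit of PI3-kinase (22.6 and 21.8 CPM in HFD libraries, against 40.0 and 31.2 CPM in control libraries; adjusted p = 0.063), Ptpn6, the phosphatase SHP-1 (134.0 and 120.6 CPM against 166.5 and 153.8 CPM; adjusted p = 0.166), and Pik3r1, a regulatory subunit of PI3-kinase (82.1 and 89.7 CPM against 69.9 and 69.7 CPM; adjusted p = 0.179), all by edgeR's quasi-likelihood test. Pik3cd passed by DESeq2 (adjusted p = 0.00226) and with no filter (0.00109). The ligands and the central factor were named after their values were seen. Il4 had 10 and 2 counts in HFD libraries, against 12 and 13 counts in control libraries, and Il13 had 3 and 0 counts against 0 and 0 counts. Stat6 was at 146.4 and 133.9 CPM in HFD libraries, against 154.6 and 127.0 CPM in control libraries, with a log2 fold change of -0.0067 and a 95% interval from -0.27 to 0.25.

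Other genes that interleukin-4 induces in macrophages went both ways. Of 26 kept genes, edgeR called 1 higher and 1 lower, against 0.322% and 0.29% of all kept genes. DESeq2 called 3 higher and 3 lower, and 166 higher and 200 lower of all 12747 kept genes. An unadjusted p under 0.05 was found for 10, against 17% of all kept genes. Log2 fold changes were below 0 for 15, against 50.8% of all kept genes, with a median of -0.15. Clec10a, a galactose-binding lectin, rose to 34.6 and 29.4 CPM in HFD libraries, against 18.2 and 16.7 CPM in control libraries (log2 fold change 0.88 ± 0.13, adjusted p = 0.029, edgeR quasi-likelihood test). Alox15, a lipoxygenase that eosinophils and resident peritoneal macrophages also express, fell to 0.280 and 0.576 CPM, against 2.06 and 2.34 CPM in control libraries (-2.38 ± 0.38, adjusted p = 0.0364). Clec7a, the β-glucan receptor Dectin-1, was at 708.0 and 788.3 CPM in HFD libraries, against 1107 and 1296 CPM in control libraries, and missed the threshold (-0.68 ± 0.12, adjusted p = 0.0513, edgeR quasi-likelihood test), although it passed by DESeq2 (adjusted p = 1.41e-05), with no filter (0.000751) and with the replicate number as a block (0.0366). Neither call held without control replicate 1 (log2 fold change 0.93 for Clec10a and -2.47 for Alox15) or without control replicate 2 (0.82 and -2.28). By limma-voom both ended too (adjusted p = 0.0511 and 0.0624). Mrc1, the mannose receptor, named after its values were seen, was at 251.3 and 300.9 CPM in HFD libraries, against 276.6 and 321.6 CPM in control libraries.

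Genes around arginine were set beside Arg1. Of 14 kept genes of arginine and polyamine metabolism 0 passed edgeR's test. DESeq2 called 1 higher, and 3 had an unadjusted p under 0.05, against 17% of all kept genes. The median log2 fold change was 0.055. The 3 with the smallest p act on polyamines, downstream of arginase: Odc1 (ornithine decarboxylase) was at 157.3 and 192.6 CPM in HFD libraries, against 125.8 and 130.0 CPM in control libraries (adjusted p = 0.109), Sms (spermine synthase) at 202.8 and 221.7 CPM against 163.8 and 180.6 CPM (adjusted p = 0.199), and Smox (spermine oxidase) at 6.96 and 8.31 CPM against 5.86 and 3.94 CPM (adjusted p = 0.202, all by edgeR's quasi-likelihood test). Odc1 passed by DESeq2 (adjusted p = 0.0278). Nos2, the enzyme that competes with arginase for arginine in classically activated macrophages, named after its values were seen, had 2 and 0 counts in HFD libraries, against 5 and 1 counts in control libraries.

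Among 20 kept classical activation genes none passed by edgeR or by DESeq2, and the median log2 fold change was 0.087. An unadjusted p under 0.05 was found for 5, against 17% of all kept genes. Il6 was at 0.452 and 0.926 CPM in HFD libraries, against 0.124 and 0.129 CPM in control libraries (log2 fold change 2.41 ± 0.55, adjusted p = 0.0898); it passed the threshold in a fit with no filter (0.0154), and the filter itself on its HFD counts, so its direction was partly set by the filter. Ptgs2, the inducible cyclooxygenase, was at 8.83 and 11.6 CPM in HFD libraries, against 6.61 and 5.64 CPM in control libraries (adjusted p = 0.109), and the interferon regulatory factor Irf1 at 54.3 and 57.9 CPM against 67.6 and 68.4 CPM (adjusted p = 0.198, all by edgeR's quasi-likelihood test). Among 15 kept transcriptional regulators of alternative activation none passed by either tool, and the median was 0.023. Here 1 had an unadjusted p under 0.05, again against 17% of all kept genes. Pparg was at 131.8 and 128.2 CPM in HFD libraries, against 138.8 and 172.4 CPM in control libraries (adjusted p = 0.296), Trib1 at 12.3 and 17.8 CPM against 12.4 and 10.3 CPM (adjusted p = 0.32), and Batf3, also a dendritic cell factor, at 0.172 and 0.200 CPM against 0.472 and 0.515 CPM (adjusted p = 0.19, edgeR quasi-likelihood test). Batf3 passed the filter on its control counts, with 8 and 8 counts in HFD libraries, so its direction was partly set by the filter.

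Partners of single genes were read from 3 further lists. Of 7 kept receptors for fibronectin, 1 was called lower, against 0.29% of all kept genes. This was the integrin subunit Itgb3, at 13.9 and 13.9 CPM in HFD libraries, against 31.5 and 22.6 CPM in control libraries (log2 fold change -0.96 ± 0.16, adjusted p = 0.0456, edgeR quasi-likelihood test). The Itgb3 call ended without control replicate 1 or 2, by limma-voom (adjusted p = 0.0776) and with a filter of 1 CPM (0.0519). Itgav, the chain that pairs with it, was at 427.3 and 392.6 CPM in HFD libraries, against 295.1 and 303.2 CPM in control libraries (0.45 ± 0.10, adjusted p = 0.0787, edgeR quasi-likelihood test), and passed by DESeq2 (adjusted p = 0.00289) and with no filter (0.0169). Itgb5 was at 50.7 and 36.6 CPM in HFD libraries, against 58.0 and 51.4 CPM in control libraries (adjusted p = 0.328, edgeR quasi-likelihood test). Of 4 kept PD-1 ligand and receptor genes none passed by edgeR and DESeq2 called 1 lower. An unadjusted p under 0.05 was found for 2, against 17% of all kept genes. Besides Cd274, Cd80 was at 21.9 and 28.9 CPM in HFD libraries, against 18.6 and 19.4 CPM in control libraries. Cd86 was at 93.4 and 174.1 CPM against 106.6 and 109.4 CPM, a difference whose direction turned without HFD replicate 2. Of 14 kept genes of the interleukin-10 and glucocorticoid response none passed by edgeR, while DESeq2 called 1 lower. In that list 4 had an unadjusted p under 0.05, beside the same 17%. There Dusp1, a phosphatase of MAP kinases, was at 67.8 and 85.7 CPM in HFD libraries, against 58.1 and 54.9 CPM in control libraries, the scavenger receptor Msr1 at 463.1 and 555.1 CPM against 664.3 and 713.4 CPM (adjusted p = 0.0254 by DESeq2), and Il10 at 0.754 and 0.901 CPM against 0.323 and 0.489 CPM.

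**Figure D4:**
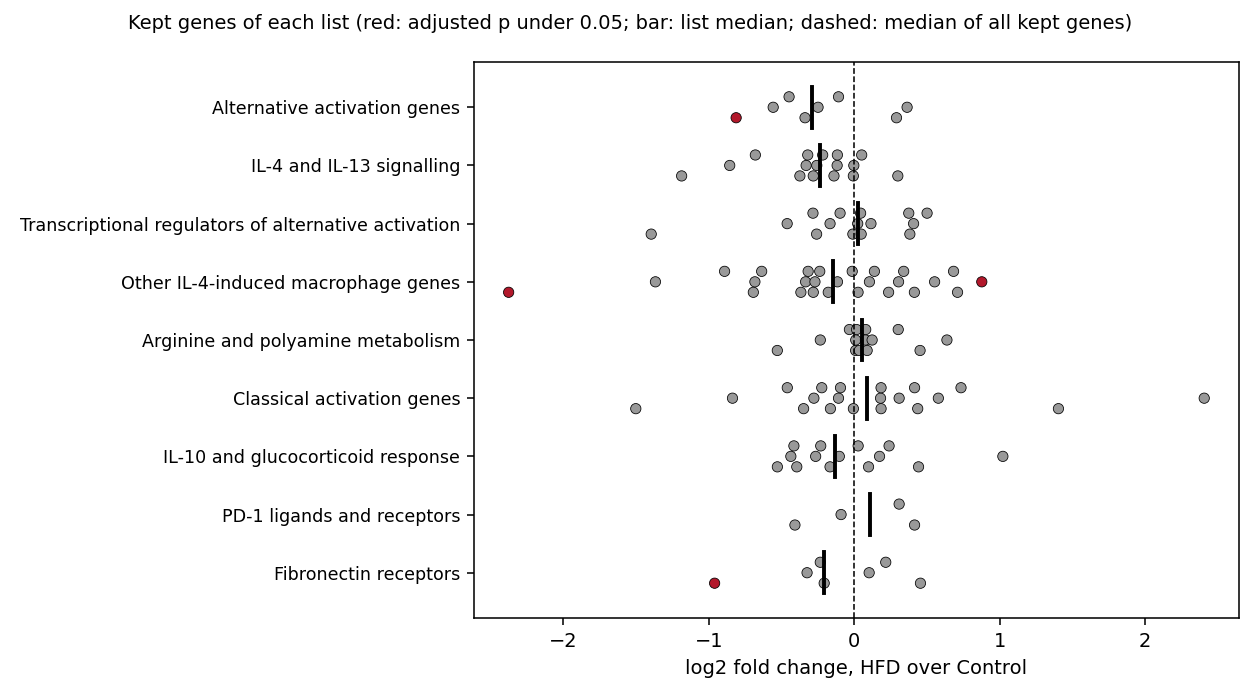
Log2 fold change, HFD over control (horizontal axis), of every kept gene in the 9 alternative activation genes and in 8 related lists (rows); red points passed an adjusted p of 0.05, black bars are list medians and the dashed line is the median of all kept genes. The called genes are Fn1, Alox15 and Itgb3 below 0 and Clec10a above 0.

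The macrophage markers gave the frame for these levels. Of 15 kept macrophage markers, 14 had log2 fold changes below 0, against 50.8% of all kept genes, with a median of -0.23. Of the 15, 1 was called lower, against 0.29% of all kept genes. Mertk, a receptor for dying cells, fell to 40.6 and 32.9 CPM in HFD libraries, against 60.1 and 58.7 CPM in control libraries (adjusted p = 0.0449, edgeR quasi-likelihood test). The Mertk call did not hold without control replicate 1 or 2, by limma-voom (adjusted p = 0.0717) or with a filter of 1 CPM (0.0519). That median lay beside -0.29 for the 8 genes described here; whether the 2 medians differ was not tested. Of 12 kept B cell markers 1, Igj, was called higher, against 0.322% of all kept genes. Igj was at 3.66 and 3.05 CPM in HFD libraries, against 0.596 and 1.21 CPM in control libraries (adjusted p = 0.0476, edgeR quasi-likelihood test). This call was lost without control replicate 1 or 2, by limma-voom (adjusted p = 0.0718), with a filter of 1 CPM (0.0549) and with the replicate number as a block (0.065). Blnk was at 108.2 and 104.8 CPM in HFD libraries, against 95.7 and 101.2 CPM in control libraries.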

How the data were processed

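Raw read counts per gene, 1 table per library, were used as the authors deposited them, on mm9 gene models that the authors also deposited. Per the submitters' processing notes, the tools were TopHat2 2.0.10, Cufflinks 2.1.1 and HTSeq. The sources used here give neither their settings nor whether counting used strand. Summary lines that name no gene (52.5% to 62.8% of each table's total) were left out. Exon positions, another deposited value, gave exon lengths and coordinates. Genes were kept by filterByExpr (minimum count 10, minimum total 15), and 12747 were tested with edgeR 4.0.16, robust quasi-likelihood, TMM, diet as the only term, and Benjamini-Hochberg adjustment over all kept genes. Intervals for fold changes are 95% and use the fit's degrees of freedom. Standard errors are the fold change over the square root of F. Log2 CPM used a prior count of 2. DESeq2 1.42.0 and limma 3.58.1 were alternatives. The replicates differed by far more than sampling noise (chi-square per degree of freedom 28.9 for HFD and 27.7 for control libraries).

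The 9 genes and the lists were chosen with earlier results of these data known, and no test over a list was made. Named are the 9 genes; of each pathway list the called genes and the 3 with the smallest p; of each marker list the called genes and the 3 with the highest mean CPM; and for each tested gene the 3 RefSeq genes of at least 5 CPM closest in centred log2 CPM, of which 1 close to Tgm2 is not reported here. Promoter sequences are RefSeq's, on GRCm38.p6; no coordinate was converted between builds.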

Additional observations from a re-analysis of the deposited data

How the results depend on the processing

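Of 80 log2 fold changes of the 8 tested genes recomputed under 10 alternatives each, 71 kept their direction and their side of the threshold, 3 lost a call (all Fn1), 3 gained one (Arg1, Retnla and Cd163, each without 1 HFD library) and 3 reversed. The reversals were Il4ra without HFD replicate 2 (0.0015) and without control replicate 1 (0.077), in a range of -0.28 to 0.077 with 1 library left out, and Retnla without HFD replicate 2 (-0.47), in a range of -0.47 to 0.89. Among the other genes named from the pathway lists, Cd86 reversed without HFD replicate 2 (-0.21), in a range of -0.21 to 0.69. Of the 9 genes, 0 were called higher and 1 lower; leaving out 1 library gave 0 to 1 higher and 0 to 2 lower, and limma-voom gave 0 lower. Over all kept genes, 41 higher and 37 lower calls became 166 and 200 by DESeq2, 255 and 267 with no filter, 25 and 21 with a filter of 1 CPM in 2 libraries, 14 and 14 by limma-voom, and 1 to 436 higher and 2 to 387 lower with 1 library left out, with the lone library of a diet assumed to vary like the other. In the pathway lists 1 gene higher and 2 lower became 5 and 7 by DESeq2, 9 and 6 with no filter, 1 and 1 with the CPM filter, 0 and 0 by limma-voom, and 0 to 17 higher and 0 to 11 lower with 1 library left out. The cause of these shifts was not tested. With the replicate number as a block, 49 genes were called higher and 64 lower. Fn1 then had an adjusted p of 0.0353 and Arg1 of 0.0567, beside 0.463 for Arg1 with no block (edgeR quasi-likelihood test). Same-numbered libraries deviated from their diet means with a correlation of 0.089 over all kept genes. The labels give no pairing, and this correlation cannot show whether the libraries were paired. RPKM by the longest transcript equalled RPKM by all exons for each of the 9 genes. Ccl17 had at most 5 counts in a library and Il4 at most 13, so depth limits both.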
